A study of Homo sapiens with 12 samples.

Results

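The 97 genes described here carry symbols of heat shock protein and co-chaperone families. They were chosen by a rule on the gene symbol among the 60666 genes listed for Huh7 cells. Most encode chaperones of the cytosol and mitochondria or their co-chaperones, but 6 are antisense or divergent RNAs and some encode proteins of the endoplasmic reticulum. The rule took the symbols of the HSP70, HSP110, HSP90, DNAJ, small heat shock protein, chaperonin and BAG families, together with HSF1, HSF2, STIP1 and AHSA1. It found 221 names, from which 118 pseudogenes were left out by their description and 6 genes by name (HSPA5, HSPBAP1, DNAJB9, DNAJB11, DNAJC3 and DNAJC19). The rule itself uses no measured value, although members and gene lists were chosen with earlier results of these data known. Of the 97 genes, 72 reached 1 TPM (a relative level per transcript length) in at least 3 of the 6 libraries and were tested. The other 25 stayed below that level, with 7 listed at 0 TPM in every library and 18 above 0 in some library, up to 3.31 TPM.

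The libraries came from Huh7, a human cell line established from a hepatocellular carcinoma, in 2 groups of 3. The control group carried a lentiviral control construct, and the shFAM111B group carried a lentiviral short hairpin RNA against FAM111B, with the cells kept as stable, puromycin-selected lines per the study's methods. The comparison addresses what the knockdown of FAM111B, a protease linked to tumour growth, does to gene expression in hepatocellular carcinoma, and the Hep3B libraries of the series were not analysed here. The labels do not say whether the 3 libraries of a group came from separate cultures, so every p-value measures only the spread between these libraries, which may be technical.

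Heat shock proteins are molecular chaperones that bind unfolded or newly made proteins, prevent their aggregation and help them to fold. HSP70 proteins work in cycles of ATP hydrolysis that J-domain proteins (DNAJA, DNAJB and DNAJC) start and nucleotide exchange factors (HSP110, BAG proteins and HSPBP1) reset. Clients can then pass to HSP90 or to the ring-shaped chaperonins TRiC in the cytosol and HSPD1 with HSPE1 in mitochondria. Under proteotoxic stress, heat shock factors bind heat shock elements in the promoters of many of these genes and raise their transcription, and hepatocellular carcinomas are known for high levels of several of them.

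FAM111B stood at 7.84, 8.29 and 7.99 TPM in the controls and 0.96, 1.13 and 0.84 TPM in shFAM111B, so the groups did not overlap (log2 fold change -2.2 ± 0.11, adjusted p = 6.1e-06). Here and below, a fold change is shFAM111B over control on the log2(TPM + 1) scale with its standard error (SE, n = 3 libraries per group), and adjusted p-values come from limma over 14394 tested genes. All 10 hepatocyte and hepatoma markers were expressed in every library, and 4 of them rose and 6 fell. AFP stood between 7045 and 7411 TPM in the controls and between 21853 and 25038 TPM in shFAM111B, and ALB between 6419 and 6492 TPM and between 3988 and 4356 TPM. The 6 fibroblast markers summed to 9.58 to 11.8 TPM in the controls and 15.1 to 21 TPM in shFAM111B, where LUM and COL1A2 rose, and the 4 endothelial markers to 1.26 to 2.29 and 2.15 to 3.49 TPM, with KDR at 0. Of the leukocyte markers, LYZ stood highest at 259 to 317 TPM, and CD3E stayed at or below 0.13 TPM. The groups also differed in whole RNA classes. The 37 genes of mitochondrial DNA summed to 196140 to 201460 TPM in the controls and to 73237 to 78883 TPM in shFAM111B. RNAs without poly(A) tails (small nuclear, nucleolar, miscellaneous and ribosomal RNAs not of mitochondria) summed to 46561, 68680 and 5007 TPM in the 3 shFAM111B libraries. They summed to 1627 to 4828 TPM in the controls. The 55 genes of ribosomal RNA, which partly overlap that sum and the sum of mitochondrial DNA, stood at 40131, 57509 and 6129 TPM in shFAM111B. In the controls these ribosomal RNA genes stood at 8079.5 to 9802 TPM. That is more than the sum without mitochondrial RNAs, so part of it is mitochondrial ribosomal RNA. The part of these shifts in the chaperone values was not tested.

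Across all tested genes the median log2 fold change was -0.36, so a chaperone at that value changed as the median gene did. For this reason each result is read on the deposited TPM and on 5 other treatments of the same values. These are median-of-ratios scaling, upper-quartile scaling, quantile normalisation, TPM rescaled over nuclear protein-coding genes, and removal of the trend of the fold change with transcript length and expression. TPM are relative and come from bulk RNA, so a change in the share of cells that express a gene cannot be told apart from a change in the RNA per cell. The depth behind a value is unknown.

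More chaperone genes fell than rose on the deposited scale, as among all genes. At the threshold of a 2-fold change and P under 0.05, 1 of the 72 tested chaperone genes (1.39%) was higher, against 6.82% of all tested genes, and 13 (18.1%) were lower, against 23.7%. At an adjusted p under 0.05 with no limit on the fold change, 16 rose (22.2%, against 21.1% of all genes), 44 fell (61.1%, against 50.9%) and 12 did not pass the test. The 3 libraries of one group lay wholly apart from those of the other for 61 of the 72, where 22.5% of all genes had every shFAM111B library above and 52.8% every one below the controls. The median fold change of the 72 was -0.41, beside -0.36 for all tested genes. Their summed level, 9006 ± 101 TPM in the controls, was 8628 ± 119 TPM in shFAM111B (SD, n = 3).

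**Figure D1:**
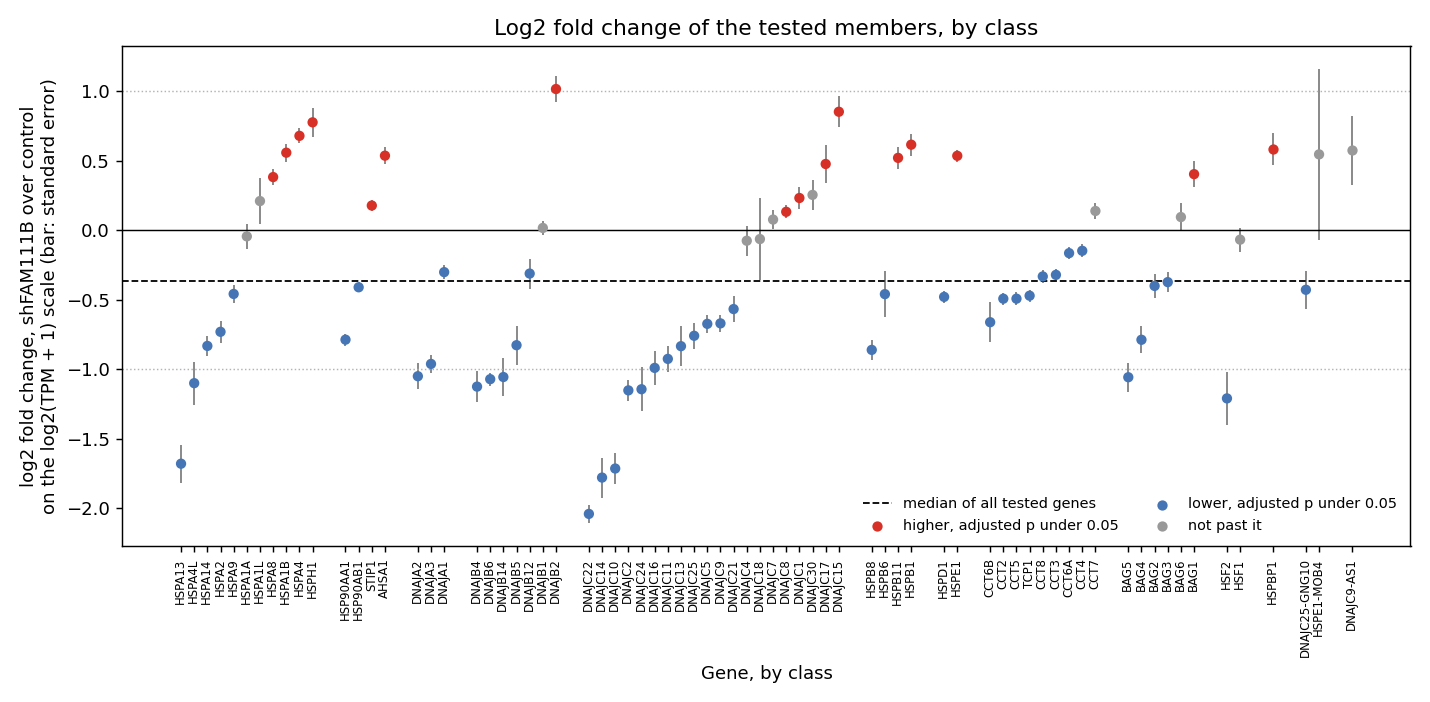
Each point is 1 of the 72 tested chaperone genes, grouped by class along the x axis, and the y axis gives its log2 fold change (shFAM111B over control, log2(TPM + 1) scale) with a bar of 1 standard error. Red points rose and blue points fell at an adjusted p under 0.05, grey points did not pass it, and the dashed line is the median of all tested genes at -0.36, with DNAJB2 (1.02) at the top and DNAJC22 (-2.04) at the bottom.

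The direction of 25 of the 72 genes depended on the treatment. Past an adjusted p of 0.05 in all 6 treatments, 10 genes were higher (13.9%, against 15.1% of the 14251 genes with a length) and 17 were lower (23.6%, against 26.4%). The 10 that rose throughout were BAG1, DNAJC17, AHSA1, HSPA1B, HSPBP1, HSPB1, HSPA4, HSPH1, DNAJC15 and DNAJB2. The 17 that fell throughout held 11 J-domain genes (DNAJA2, DNAJA3, DNAJB4, DNAJB6, DNAJC2, DNAJC9, DNAJC10, DNAJC11, DNAJC14, DNAJC22 and DNAJC24), 3 HSP70 or HSP110 genes (HSPA13, HSPA14 and HSPA4L), HSP90AA1, HSPB8 and HSF2. A further 8 genes had a positive and 12 a negative fold change throughout without passing the test each time. The set also held 6 antisense or divergent RNAs, 1 of them tested, and 3 readthrough genes, 2 of them tested, and among these DNAJC25-GNG10 fell and the other 2 did not pass the test.

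**Figure D2:**
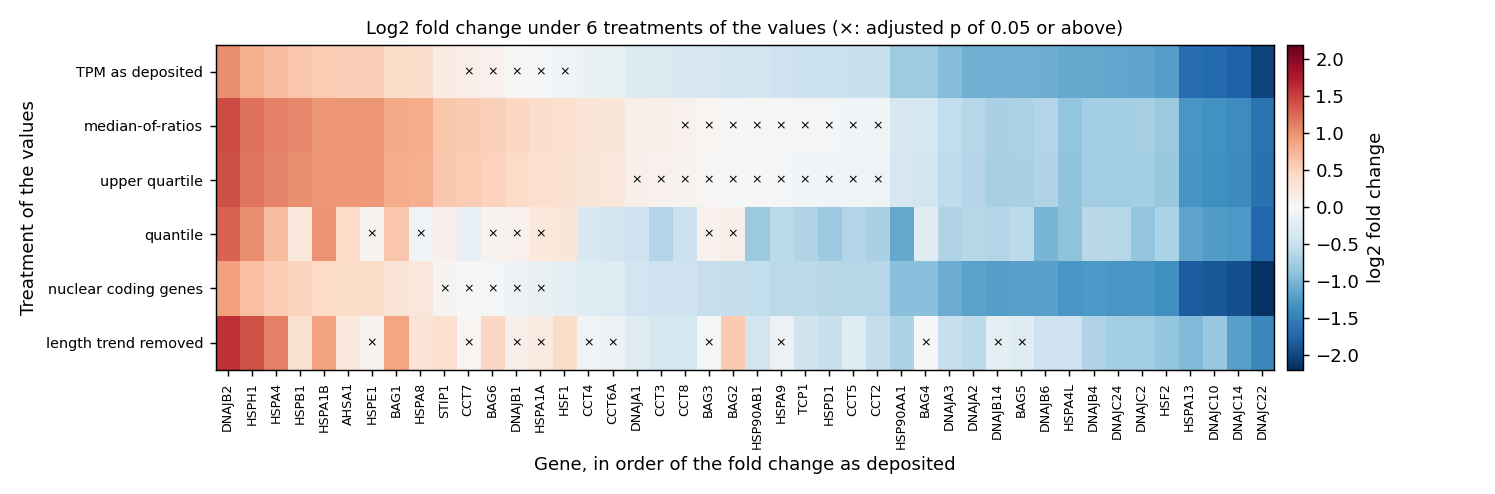
Rows are the 6 treatments of the values, columns are named chaperone genes ordered by their fold change on the deposited TPM, and the colour gives the log2 fold change, with a cross where the adjusted p was 0.05 or above. DNAJB2, HSPH1 and HSPA4 at the left are red in all 6 rows and DNAJC22, DNAJC14, DNAJC10 and HSPA13 at the right are blue in all 6, whereas CCT3, CCT4, CCT6A, CCT8 and HSP90AB1 in the middle change colour between rows.

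Heat shock elements were searched in the promoters because they are the sites at which heat shock factors act on this gene family. The strict element, GAA then TTC then GAA with any 2 bases between them, and its reverse complement were searched on both strands in RefSeq windows of 300 bases (250 before and 50 after a start site, GRCh38.p14). Of the 83 chaperone symbols in that table, 7 (8.43%) held it, beside 166 of 27305 symbols (0.608%) in all, and among windows 7 of 110 (6.36%) against 172 of 35116 (0.49%). The matches read as follows on the strand of the gene with the element in capitals, for the genes whose levels are given in the next paragraphs.
HSPA8, chr11:123062348-123062372, minus strand: gagcttGAAAGTTCCAGAAcgctgc
HSPA8, chr11:123062173-123062197, minus strand: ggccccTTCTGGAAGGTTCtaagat
HSP90AA1, chr14:102087114-102087138, minus strand: gggttcTTCCGGAAGGTTCgggagg
HSP90AB1, chr6:44247753-44247815, plus strand: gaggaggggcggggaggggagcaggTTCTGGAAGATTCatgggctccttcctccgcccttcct
HSP90AB1, chr6:44247825-44247849, plus strand: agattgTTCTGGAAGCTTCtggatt
DNAJA1, chr9:33025270-33025294, plus strand: cgggcgGAACTTTCCAGAAcgctcg
DNAJB6, chr7:157336848-157336910, plus strand: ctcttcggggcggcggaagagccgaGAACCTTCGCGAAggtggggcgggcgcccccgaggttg
HSPD1, chr2:197500062-197500090, minus strand: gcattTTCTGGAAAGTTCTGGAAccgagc
HSPA6, chr1:161524441-161524503, plus strand: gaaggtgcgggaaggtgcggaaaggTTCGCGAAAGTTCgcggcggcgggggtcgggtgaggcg
Positions were read from the start site of each window. The elements lay at bases -230 to -218 and -55 to -43 of HSPA8, -88 to -76 of HSP90AA1, and -165 to -153 and -112 to -100 of HSP90AB1. Those of DNAJB6 and HSPA6 lay at -131 to -119 and -74 to -62. The element of DNAJA1 lay at 4 to 16. By the GENCODE v29 transcripts, the elements of DNAJA1 and HSP90AA1, the one of HSPA8 nearer to the start and those of HSPD1 lie in an untranslated region of some transcript of the gene, and those of HSPD1 also in one of HSPE1. In HSPD1 a pair of overlapping matches spans 18 bases at -245 to -228 of the window of an alternative start site. A match describes letters only, and genes without one may hold weaker elements or elements elsewhere. Of the 6 tested genes with a match, HSPA8 rose and DNAJA1, DNAJB6, HSP90AA1, HSP90AB1 and HSPD1 fell on the deposited scale. Among all tested genes 21.1% rose and 50.9% fell on that scale. HSPA8, DNAJA1 and HSP90AB1 changed direction under other treatments, and HSPD1 did not pass the test under median-of-ratios or upper-quartile scaling.

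Among the HSP70 and HSP110 genes, HSPA8 (except under quantile normalisation) and the HSP110 genes HSPA4 and HSPH1 were higher in shFAM111B, and the less abundant HSPA13, HSPA14, HSPA4L and HSPA2 (except after removal of the length trend) were lower. Of the 14 genes of the class 11 were tested, 4 rose (36.4%, against 21.1% of all tested genes), 5 fell (45.5%, against 50.9%) and 2 did not pass the test, with a median fold change of -0.04. HSPA8, the constitutive HSP70 of the cytosol and the most abundant gene of the class, was at 908, 829 and 929.5 TPM in the controls and 1137, 1140.0 and 1196 TPM in shFAM111B. Every shFAM111B library lay above every control (log2 fold change 0.38 ± 0.05, adjusted p = 0.000586), although quantile normalisation gave -0.086 and turned the direction. HSPA4, an HSP110 protein that releases ADP from HSP70, was measured at 103, 97.6 and 98.2 TPM in the controls and 157, 153 and 169.9 TPM in shFAM111B. It rose by 1.60-fold with no overlap (log2 fold change 0.68 ± 0.05, adjusted p = 3.3e-05, 0.55 to 1.11 over the 6 treatments). HSPH1, the heat-inducible HSP110, had 48.1, 41.1 and 37.8 TPM in the controls and 75.3, 78.1 and 65.7 TPM in shFAM111B. The groups were again apart (log2 fold change 0.78 ± 0.11, adjusted p = 0.000445, 0.65 to 1.40 over the 6 treatments). HSPA1A and HSPA1B encode the same stress-inducible HSP70 from neighbouring loci on chromosome 6 (31815464-31817946 and 31827735-31830255, GRCh38, plus strand). Their coding sequences differ at 4 of 1926 bases (99.79% identical), so how the counting split reads between them is uncertain. HSPA1B rose from 22.7, 20.1 and 21.1 to 32.2, 31.8 and 31.5 TPM (log2 fold change 0.56 ± 0.07, adjusted p = 0.000208). HSPA1A was at 52.9, 44.4 and 53.1 TPM in the controls and 52.6, 47.2 and 45.7 TPM in shFAM111B. Its groups overlapped (log2 fold change -0.04 ± 0.09, adjusted p = 0.68), while it passed the test at 0.38 under median-of-ratios and 0.36 under upper-quartile scaling. HSPA6, another stress-inducible HSP70, was not tested because it stayed between 0.07 and 0.14 TPM in the controls and between 0.36 and 0.48 TPM in shFAM111B.

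HSPA13, an HSP70 of the microsomes, had the lowest fold change of the class on the log2(TPM + 1) scale, although the ratio of mean TPM was lower for HSPA4L (0.226) than for HSPA13 (0.281). Libraries held 25.1, 21.6 and 19.3 TPM in the controls and 6.07, 7.24 and 5.27 TPM in shFAM111B. This was a 3.20-fold difference with no overlap (log2 fold change -1.68 ± 0.14, adjusted p = 3.7e-05, -1.83 to -0.98 over the 6 treatments). HSPA4L, an HSP110 gene near the limit of 1 TPM, was at 2.76, 1.85 and 2.16 TPM in the controls and 0.56, 0.53 and 0.44 TPM in shFAM111B. Its fold change is understated by the pseudocount of 1 (log2 fold change -1.10 ± 0.15, adjusted p = 0.000519). HSPA14, which works at the ribosome with DNAJC2, fell from 34.3, 31.7 and 35.1 to 18.7, 19.3 and 17.5 TPM (log2 fold change -0.83 ± 0.07, adjusted p = 4.1e-05). HSPA9, the mitochondrial HSP70, was at 235, 231 and 222 TPM in the controls and 173, 151 and 176 TPM in shFAM111B, so the groups were apart. It fell on the deposited scale (log2 fold change -0.46 ± 0.07, adjusted p = 0.000624), by 0.10 more than the median gene, and passed the test neither under median-of-ratios or upper-quartile scaling nor after the length trend was removed.

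**Figure D3:**
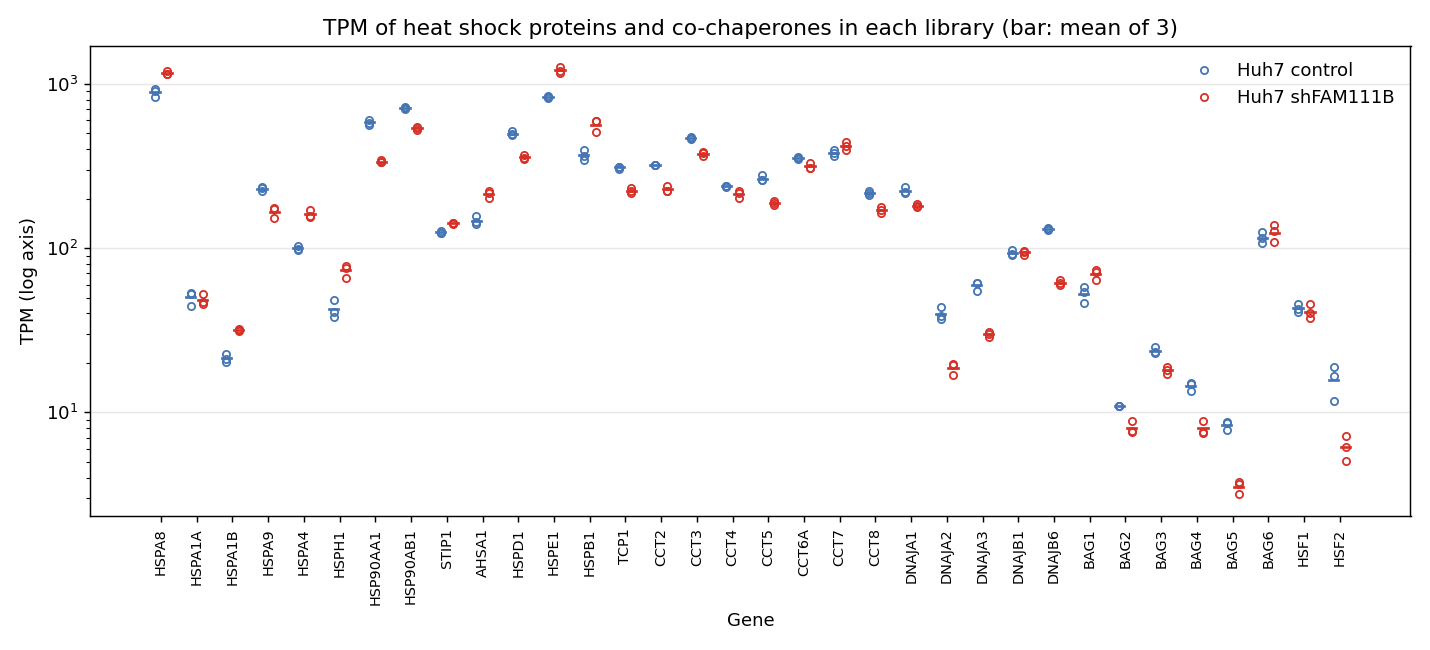
Each circle is 1 library (blue control, red shFAM111B, 3 per group), the bar is the mean of 3, and the y axis gives TPM on a log axis for 34 named chaperone genes along the x axis. HSPA8, HSPA4, HSPH1, AHSA1, HSPE1 and HSPB1 have all red circles above the blue ones, HSP90AA1, HSPD1, DNAJB6, DNAJA2, DNAJA3, BAG5 and HSF2 have all red circles below, and HSPA1A, DNAJB1, BAG6 and HSF1 overlap.

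HSP90AA1 was lower in shFAM111B in all 6 treatments and HSP90AB1 in 4 of them, while AHSA1, a cofactor of HSP90, was higher. HSP90AA1, the inducible cytosolic HSP90, was at 605, 579 and 558 TPM in the controls and 334, 341 and 331 TPM in shFAM111B, which kept the groups apart. The difference was 1.73-fold (log2 fold change -0.79 ± 0.04, adjusted p = 8.2e-06, -1.12 to -0.35 over the 6 treatments). HSP90AB1, the constitutive form, was at 717, 702 and 715 TPM in the controls and 541, 541 and 522 TPM in shFAM111B, again with no overlap. It fell on the deposited scale (log2 fold change -0.41 ± 0.04, adjusted p = 6.0e-05), but its fold change was 0.024 under median-of-ratios and 0.0036 under upper-quartile scaling. AHSA1, which speeds up the ATP hydrolysis of HSP90, was at 156, 140.3 and 145 TPM in the controls and 223, 202 and 216 TPM in shFAM111B. It rose in all 6 treatments (log2 fold change 0.54 ± 0.06, adjusted p = 0.000156). STIP1, the adaptor that links HSP70 to HSP90, had 124, 123 and 128 TPM in the controls and 140.3, 143 and 141 TPM in shFAM111B. Its rise was small (log2 fold change 0.18 ± 0.04, adjusted p = 0.00601) and did not pass the test after rescaling over nuclear coding genes. Within a library, the log2 ratio of HSP90AA1 to HSP90AB1 was -0.24, -0.28 and -0.36 in the controls and -0.69, -0.66 and -0.65 in shFAM111B, a difference of -0.38 with no overlap between the groups.

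HSPD1 and HSPE1, the mitochondrial HSP60 and its HSP10 lid, moved in opposite directions although they lie head to head on chromosome 2. Their RefSeq start sites are 105 bases apart, at 197500274 on the minus strand for HSPD1 and at 197500379 on the plus strand for HSPE1 (GRCh38.p14). Another HSPD1 start lies 539 bases from that of HSPE1. HSPD1 was at 512, 491 and 484 TPM in the controls and 353, 368 and 346 TPM in shFAM111B and fell (log2 fold change -0.48 ± 0.04, adjusted p = 6.4e-05). HSPE1 was at 831, 839 and 818 TPM in the controls and 1160.0, 1257 and 1193 TPM in shFAM111B and rose (log2 fold change 0.54 ± 0.04, adjusted p = 3.7e-05). Neither pair of groups overlapped, and both fold changes kept their sign in all 6 treatments, with HSPD1 between -0.80 and -0.045 and HSPE1 between 0.064 and 0.97. The fall of HSPD1 did not pass the test under median-of-ratios or upper-quartile scaling. The rise of HSPE1 did not pass the test under quantile normalisation or after the length trend was removed, and the longest transcripts are 2455 bases for HSPD1 and 950 bases for HSPE1. The log2 ratio of HSPD1 to HSPE1 within a library was -0.70, -0.77 and -0.76 in the controls and -1.71, -1.77 and -1.78 in shFAM111B, a difference of -1.01. Of the 8 pairs compared it was the second largest by size. The annotated HSPD1 gene (197486581-197516737, GENCODE v29) spans HSPE1 (197499994-197503457) on the other strand, and the sources used here do not say whether the counting used strand. The readthrough gene HSPE1-MOB4, which shares HSPE1 sequence, stayed between 0.66 and 6.67 TPM.

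The 8 pairs were compared as ratios because multiplying a library by 1 factor moves a ratio within it only through the pseudocount of 1. Quantile normalisation and removal of the length trend move the ratio in other ways as well. Across the 7 pairs of single genes these steps kept the sign of each difference but changed its size. This comparison was added after the values were seen and has no test. The difference of HSPD1 over HSPE1 was -0.87 and -0.56 after these 2 steps, and that of DNAJA2 over DNAJA1 was -0.18 and -0.31. With 3 libraries against 3 the exact two-sided permutation test cannot give a p below 0.1 (0.114 adjusted over the 8 pairs), and 7 of the 8 pairs were at that limit with no overlap between groups. DNAJA2 fell relative to DNAJA1, both class A J-domain partners of HSP70, by 0.75, from a log2 ratio of -2.46 ± 0.07 to -3.21 ± 0.10 (SD, n = 3). DNAJB1 rose relative to DNAJA1, by 0.32, from -1.25 ± 0.02 to -0.94 ± 0.02. BAG3 fell relative to BAG1, by 0.78, from -1.12 ± 0.15 to -1.89 ± 0.16. The inducible HSPA1A and HSPA1B, summed, fell relative to HSPA8 by 0.21 on the deposited scale, from -3.62 ± 0.05 to -3.83 ± 0.10. The ratio of this summed pair was not computed after the steps that change the ratio in other ways. Under quantile normalisation, however, HSPA1A and HSPA1B had fold changes of 0.235 and 0.986 and HSPA8 -0.086, the opposite direction. After removal of the length trend the fold changes were 0.204, 0.882 and 0.304. HSF1 over HSF2 showed the largest difference, 1.14, from 1.42 ± 0.35 to 2.56 ± 0.34. HSPH1 over HSPA4, the 2 HSP110 genes that rose, did not separate the groups (-1.22 ± 0.14 and -1.12 ± 0.21, exact two-sided permutation p = 0.6).

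**Figure D4:**
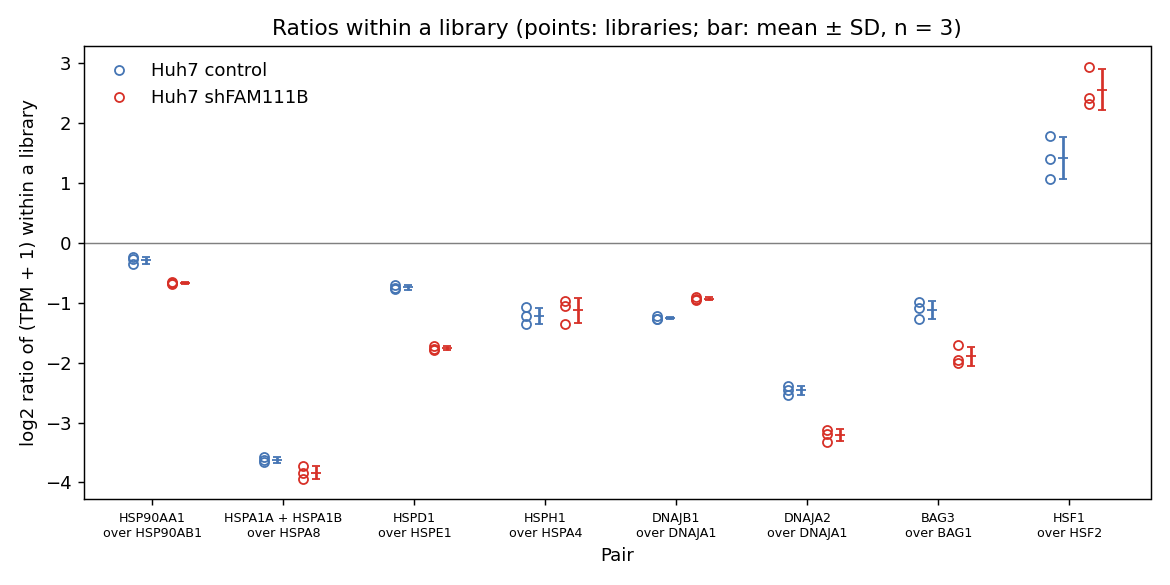
Each circle is the log2 ratio of (TPM + 1) of 2 chaperones within 1 library (blue control, red shFAM111B), and the bar beside it is the mean ± SD of 3 libraries. HSPD1 over HSPE1 goes from -0.74 to -1.76 and HSF1 over HSF2 from 1.42 to 2.56, whereas the libraries of HSPH1 over HSPA4 overlap.

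TRiC, the 8-subunit chaperonin that folds actin and tubulin, was lower in sum on the deposited scale but not for each subunit. Its 8 core subunits summed to 2549 ± 14.1 TPM in the controls and 2132 ± 45.3 TPM in shFAM111B (SD, n = 3). Their median fold change on the deposited scale was -0.33, beside -0.36 for all tested genes, so their typical fall was about that of the median gene. On that scale 7 subunits fell (87.5%, against 50.9% of all tested genes), with fold changes from -0.49 (CCT2 and CCT5) to -0.15 (CCT4), of which CCT3, CCT4, CCT6A and CCT8 turned positive under median-of-ratios and upper-quartile scaling, and CCT7 did not pass the test. CCT2 was at 322, 322 and 319 TPM in the controls and 224, 223 and 238 TPM in shFAM111B, with no overlap (log2 fold change -0.49 ± 0.04, adjusted p = 4.8e-05). CCT7 was at 365, 377 and 396 TPM in the controls and 419, 396 and 439 TPM in shFAM111B, so the groups overlapped (log2 fold change 0.14 ± 0.05, adjusted p = 0.0548). It passed the test at 0.57 under median-of-ratios and 0.55 under upper-quartile scaling, and in the other direction at -0.18 under quantile normalisation. Relative to the mean of the other 7 subunits in the same library, CCT7 had a log2 ratio of 0.27, 0.33 and 0.40 in the controls and 0.84, 0.76 and 0.86 in shFAM111B. This comparison was chosen after its values were seen and has no test. No TRiC subunit fell or rose past the test in all 6 treatments. CCT6B, a testis-rich form of the sixth subunit, was at 4.30 to 5.41 TPM in the controls and 2.14 to 3.06 TPM in shFAM111B, and CCT8L2 was listed at 0.

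The J-domain proteins, which deliver clients to HSP70 and stimulate its ATPase, held 20 of the 44 chaperone genes that fell. Of 41 DNAJ genes 30 were tested, 20 fell (66.7%, against 50.9% of all tested genes), 5 rose (16.7%, against 21.1%) and 5 did not pass the test, with a median fold change of -0.72. The medians of the DNAJB and DNAJC classes, -0.83 and -0.67, were 0.037 and 0.0046 after the length trend was removed. DNAJC22 had the lowest fold change of the 72 tested chaperones on the log2(TPM + 1) scale, a 4.11-fold fall, although its ratio of mean TPM (0.233) was not below that of HSPA4L (0.226). It was at 75.8, 74.4 and 78.3 TPM in the controls and 18.1, 18.8 and 16.5 TPM in shFAM111B (log2 fold change -2.04 ± 0.06, adjusted p = 2.4e-06, -2.18 to -1.42 over the 6 treatments). DNAJC14, a J-domain protein of the endoplasmic reticulum membrane, was at 21.3, 21.7 and 23.1 TPM in the controls and 5.54, 7.22 and 4.61 TPM in shFAM111B. It fell 3.43-fold (log2 fold change -1.78 ± 0.14, adjusted p = 3.4e-05, -1.93 to -1.19 over the 6 treatments). DNAJC10 is a reductase that opens disulphide bonds of misfolded proteins in the endoplasmic reticulum. Its level was 16.3, 14.1 and 14.3 TPM in the controls and 4.10, 4.12 and 3.32 TPM in shFAM111B (log2 fold change -1.71 ± 0.11, adjusted p = 1.4e-05, -1.87 to -0.84 over the 6 treatments). For each of these 3 genes the lowest control library lay above the highest shFAM111B library by more than 2-fold.

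DNAJB6, which holds back the aggregation of polyglutamine proteins, was the most abundant J-domain gene called lower. It was at 131, 129 and 132 TPM in the controls and 63.5, 61.5 and 59.7 TPM in shFAM111B, with no overlap (log2 fold change -1.07 ± 0.05, adjusted p = 3.6e-06). DNAJC2, the J-domain partner of HSPA14 at the ribosome, fell from 68.3, 69.6 and 64.1 to 28.9, 32.7 and 27.8 TPM (log2 fold change -1.15 ± 0.08, adjusted p = 1.4e-05). DNAJA2 was at 43.9, 38.6 and 37.0 TPM in the controls and 16.9, 19.5 and 19.8 TPM in shFAM111B, a 2.07-fold fall (log2 fold change -1.05 ± 0.09, adjusted p = 5.2e-05). DNAJC24, which takes part in the making of diphthamide, and DNAJB4 fell by 1.14 and 1.12 on the log2 scale, and each of these 5 genes fell in all 6 treatments. DNAJB14, a J-domain protein of the endoplasmic reticulum membrane, fell by 1.06 on the deposited scale, from 6.88, 6.24 and 5.18 to 2.72, 2.12 and 2.38 TPM. It did not pass the test after the length trend was removed. DNAJA1, the most abundant J-domain gene, was at 235, 216 and 219.8 TPM in the controls and 178, 186 and 179.7 TPM in shFAM111B. It fell on the deposited scale (log2 fold change -0.30 ± 0.05, adjusted p = 0.000991), less than the median gene, with a positive value under median-of-ratios and upper-quartile scaling. DNAJB1, the main heat-inducible J-domain protein, was at 96.8, 92.0 and 90.7 TPM in the controls and 91.3, 96.2 and 95.2 TPM in shFAM111B. Its groups overlapped (log2 fold change 0.02 ± 0.05, adjusted p = 0.778), while it passed the test at 0.45 under median-of-ratios and 0.43 under upper-quartile scaling.

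DNAJB2, a J-domain protein with ubiquitin-interacting motifs that sorts clients to the proteasome, was the 1 chaperone gene past a 2-fold rise. It was at 31.9, 30.8 and 33.9 TPM in the controls and 62.8, 60.2 and 76.3 TPM in shFAM111B. Every shFAM111B library lay above 60 TPM and every control below 34 TPM (log2 fold change 1.02 ± 0.10, adjusted p = 7.5e-05, 0.90 to 1.61 over the 6 treatments). Without control library 2 or without shFAM111B library 3 its log2 fold change was 0.99 or 0.91, under the 2-fold limit. DNAJC15, a J-domain protein of the mitochondrial inner membrane, followed at 6.44, 6.01 and 5.88 TPM in the controls and 11.2, 13.7 and 10.7 TPM in shFAM111B. The groups did not overlap (log2 fold change 0.85 ± 0.11, adjusted p = 0.000372, 0.76 to 1.87 over the 6 treatments). DNAJC17, which is linked to splicing, rose from 33.8, 27.6 and 38.5 to 41.8, 44.7 and 53.2 TPM (log2 fold change 0.48 ± 0.14, adjusted p = 0.0169), and did so in all 6 treatments. DNAJC8 and DNAJC1 rose by 0.13 and 0.23 on the deposited scale. Among the 7 mitochondrial genes of the set, HSPE1 and DNAJC15 rose (28.6%, against 21.1% of all tested genes). HSPD1, HSPA9, DNAJA3 and DNAJC11 fell (57.1%, against 50.9%), and DNAJC30 did not pass the test. DNAJA3, the mitochondrial class A J-domain protein, had 61.3, 55.1 and 61.2 TPM in the controls and 28.6, 31.1 and 30 TPM in shFAM111B. It fell in all 6 treatments (log2 fold change -0.96 ± 0.07, adjusted p = 1.7e-05).

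Small heat shock proteins hold unfolded clients in soluble complexes without ATP, and HSPB1 and HSPB8 moved in opposite directions. HSPB1, known as HSP27, was at 345, 364 and 393 TPM in the controls and 592, 507 and 592 TPM in shFAM111B. It rose by 1.53-fold (log2 fold change 0.62 ± 0.08, adjusted p = 0.000324, 0.24 to 1.05 over the 6 treatments). HSPB8, which acts with BAG3 in selective autophagy, was at 53.4, 53.2 and 50.9 TPM in the controls and 26.3, 30.9 and 28.3 TPM in shFAM111B. It fell by 1.82-fold (log2 fold change -0.86 ± 0.07, adjusted p = 3.9e-05, -0.99 to -0.44 over the 6 treatments). No library of one group crossed into the other for either gene. HSPB11, a subunit of intraflagellar transport despite its name, rose on the deposited scale from 73.5, 77.0 and 64.7 to 98.1, 102 and 109 TPM, but its fold change was -0.15 after the length trend was removed. HSPB6 fell by 0.46 at a level under 3 TPM, and the other 4 genes of the class (HSPB2, HSPB3, HSPB7 and HSPB9) stayed below 1 TPM.

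The BAG proteins and HSPBP1 exchange the nucleotide of HSP70, and BAG1 with HSPBP1 was higher while BAG5 and BAG4 were lower. BAG1 was at 46.3, 57.9 and 53.7 TPM in the controls and 71.9, 64.0 and 73.4 TPM in shFAM111B and rose in all 6 treatments (log2 fold change 0.40 ± 0.10, adjusted p = 0.00702). HSPBP1 was at 26.0, 29.7 and 31.5 TPM in the controls and 43.7, 38.3 and 50.9 TPM in shFAM111B (log2 fold change 0.58 ± 0.12, adjusted p = 0.00329). Both kept the groups apart. BAG5 was at 8.79, 7.85 and 8.67 TPM in the controls and 3.68, 3.18 and 3.75 TPM in shFAM111B, a 2.08-fold fall (log2 fold change -1.06 ± 0.10, adjusted p = 9.2e-05). BAG4 fell by 0.79 on the log2 scale, and neither BAG4 nor BAG5 passed the test after the length trend was removed. BAG3, the heat-inducible member that works in selective autophagy, was at 22.9, 23.3 and 24.8 TPM in the controls and 17.2, 18.9 and 18.1 TPM in shFAM111B. It fell by about as much as the median gene (log2 fold change -0.37 ± 0.07, adjusted p = 0.00221), and lay between -0.50 and 0.10 over the 6 treatments. BAG2 behaved in the same way on the deposited scale (-0.40) and stood at 0.58 after the length trend was removed. BAG6, which guards tail-anchored proteins, was at 107, 125 and 115 TPM in the controls and 126, 108 and 137 TPM in shFAM111B. Its libraries overlapped (log2 fold change 0.09 ± 0.10, adjusted p = 0.416), while it passed the test at 0.53 and 0.51 under median-of-ratios and upper-quartile scaling and at 0.45 after the length trend was removed.

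Of the heat shock factors, HSF2 was lower in shFAM111B and HSF1, the main factor of the heat shock response, did not pass the test on the deposited scale. HSF1 was at 40.8, 42.5 and 45.6 TPM in the controls and 40.0, 37.4 and 45.8 TPM in shFAM111B, which overlapped (log2 fold change -0.068 ± 0.09, adjusted p = 0.506). It passed the test in the 5 other treatments but in opposite directions, at 0.26 to 0.41 in 4 of them and at -0.19 after rescaling over nuclear coding genes (adjusted p = 0.0367). HSF2 was at 18.9, 11.7 and 16.6 TPM in the controls and 7.22, 6.19 and 5.08 TPM in shFAM111B. Its highest shFAM111B library lay below its lowest control (log2 fold change -1.21 ± 0.19, adjusted p = 0.000965, -1.35 to -0.69 over the 6 treatments). The 16 textbook targets of these factors among the chaperones, which include the constitutive HSPA8 and HSP90AB1, did not move as a block. Of the 15 tested, 7 rose (46.7%, against 21.1% of all tested genes: HSPA8, HSPA1B, HSPH1, HSPB1, HSPE1, STIP1 and AHSA1), 6 fell (40%, against 50.9%: HSPA4L, HSP90AA1, HSP90AB1, HSPD1, DNAJA1 and BAG3) and HSPA1A and DNAJB1 did not pass the test, with a median fold change of 0.02. In all 6 treatments 4 of them were higher (26.7%, against 15.1% of all genes with a length: HSPA1B, HSPH1, HSPB1 and AHSA1). In all 6 treatments 2 were lower (13.3%, against 26.4%: HSPA4L and HSP90AA1), and 6 changed direction. HSBP1, a small protein that binds heat shock factors and lies outside the symbol rule, rose from 54.6, 56.6 and 38.9 to 132, 126 and 163 TPM (log2 fold change 1.48 ± 0.16, adjusted p = 0.000145).

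HSBP1 belongs to 46 related genes outside the symbol rule (further cofactors of HSP90 and HSP70, mitochondrial cofactors and proteases, prefoldin, crystallins, TRiC clients and partners of HSF1). Of the 44 tested, 17 rose (38.6%, against 21.1% of all tested genes), 21 fell (47.7%, against 50.9%) and 6 did not pass the test. Past 2-fold 3 were higher (6.82%, the same share as among all genes) and 3 lower (6.82%, against 23.7%). FKBP5, an HSP90 cofactor of steroid receptors, fell from 9.02, 8.56 and 9.05 to 0.88, 1.06 and 0.93 TPM (log2 fold change -2.34 ± 0.11, adjusted p = 4.2e-06). Of the 12 HSP90 cofactors 5 rose (41.7%, against 21.1% of all tested genes) and 7 fell (58.3%, against 50.9%). CLPP, the mitochondrial matrix protease, rose (log2 fold change 1.38 ± 0.15, adjusted p = 0.000163), while CLPX, the ATPase that feeds it, fell (log2 fold change -1.74 ± 0.12, adjusted p = 1.9e-05). Of the 9 actin and tubulin genes whose products TRiC folds, 2 rose (22.2%) and 4 fell (44.4%), near the shares of all tested genes, and 3 did not pass, with TUBB2B the 1 past 2-fold (log2 fold change 1.41 ± 0.14, adjusted p = 9.6e-05). HIF1A, a client of HSP90, fell (log2 fold change -2.01 ± 0.09, adjusted p = 4.1e-06). Of the 8 prefoldin and phosducin-like genes, which hand clients to TRiC, 3 rose (37.5%, against 21.1%), 4 fell (50%, against 50.9%) and 1 did not pass.

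Fold changes moved with transcript length among all genes and among the chaperones. For genes with a longest transcript of up to 1000 bases the median fold change was 0.43 (1478 genes), beside 0.54 for the 4 chaperones of that class. The medians were 0.17 and 0.03 from 1000 to 2000 bases (2235 genes, 8 chaperones), -0.32 and -0.37 from 2000 to 4000 bases (5162 and 39), -0.78 and -0.67 from 4000 to 8000 bases (4346 and 19), and -0.94 and -1.41 above 8000 bases (1030 and 2). DNAJB2 (4487 bases), HSPA4 (4825 bases), HSPH1 (5191 bases) and DNAJC15 (7853 bases) rose and, by their longest transcripts, lie in the class with a median of -0.78. The transcripts expressed in these cells may be shorter, which was not tested. After the trend was removed with these lengths, the fold changes of the same genes were 1.61, 1.11, 1.40 and 1.87, and they depend on the length assigned. HSPE1, at 950 bases, was at 0.064 after the same step and HSPB1, at 1455 bases, at 0.33. On the falling side, DNAJC22 was at -1.42, DNAJC14 at -1.19 and HSPA13 at -0.98.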

How the data were processed

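RNA sequencing data of Huh7 cells (3 control and 3 shFAM111B libraries) were used, and groups were taken from the labels. The authors deposited 1 table that holds TPM per library. Its other columns, group means and the authors' comparison (a ratio of the groups, log2 of that ratio, p-value with and without adjustment), were not used. The submitters' processing notes name RSEM, DESeq2 and hg38 without versions or roles, and the strand setting of the counting is not given in the sources used here. The study's methods name a TruSeq kit and the labels a stranded mRNA kit with poly(A) selection. TPM hold no depth, so depth and its precision are unknown, and a gene that shares reads with a copy can be split either way.

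The test covered genes that reached 1 TPM in 3 or more libraries and used limma 3.58.1 (R 4.3.3; lmFit, eBayes with trend, two-sided) on log2(TPM + 1), with Benjamini-Hochberg adjustment over 14394 genes. The design allowed for counts, and limma was used because the table holds TPM. The scripts were tested on simulated data. Calls needed a 2-fold change and P under 0.05, the threshold of the study. Tables and figures were made with Python 3.11.15, numpy 2.4.6, pandas 2.3.3 and matplotlib 3.10.9.

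The rule named FAM111B, a fixed list of 34 chaperones by role, the called genes with the largest rises and falls (up to 10 each way), and related genes past 2-fold. Other members are named to show a class count, chosen after their values were seen. Members and gene lists were chosen with earlier results of these data known. Lengths are those of the longest GENCODE v29 transcript, which held 58420 of the 60666 identifiers, and promoter windows are from RefSeq (GRCh38.p14). The length and expression trend was removed by loess (span 0.75). Ratios within a library were compared by an exact permutation test. The alternatives were no filter, at least 1 TPM in every library, a pseudocount of 0.1, the 5 other treatments of the values, adjusted calls, a replicate block and leaving out each library. Under 1% of tested genes had identical TPM in any pair of libraries. The left-out pseudogenes summed to 10.4 to 16.3 TPM per library. One leukocyte marker is not reported here.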

Additional observations from a re-analysis of the deposited data

How the results depend on the processing

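Beside the 1 chaperone gene called higher and the 13 called lower, dropping the fold limit at an adjusted p under 0.05 gave 16 and 44, median-of-ratios scaling 6 and 4, upper-quartile scaling 5 and 4, quantile normalisation 3 and 6, and removal of the length trend 5 and 2. Rescaling over nuclear coding genes gave 0 called higher in limma, with DNAJB2 at 0.90 and 13 above 0 at an unadjusted p under 0.05, and leaving out 1 library gave 0 to 2 higher and 11 to 14 lower. Among all genes (981 and 3409), the same settings in the same order gave 3044 and 7326, 1963 and 1840, 1899 and 1910, 1694 and 1849, and 1309 called lower after removal of the length trend. At least 1 TPM in every library gave 634 called higher, from fewer genes, and leaving out 1 library 918 to 1087 higher and 3362 to 3554 lower. Related genes called higher (3) numbered 17 without the fold limit, with 21 lower, and 10 under median-of-ratios, 10 under upper-quartile, 5 under quantile normalisation and 6 after removal of the length trend. The cause of these changes was not tested, other than that a scaling that moves the median gene to near 0 moves every fold change with it.

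The median fold change of the tested chaperones (-0.41) was -0.235 with no filter, -0.428 with at least 1 TPM in every library, -0.425 with a pseudocount of 0.1, 0.0083 under median-of-ratios, -0.011 under upper-quartile, -0.241 under quantile normalisation, -0.531 after rescaling over nuclear coding genes and -0.057 after removal of the length trend, with -0.412 to -0.384 when 1 library was left out. The median of all genes under the same settings was -0.044, -0.369, -0.417, 0.011, -0.0062, -0.030, -0.486 and -0.018.

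Directions turned as follows. Under median-of-ratios and upper-quartile scaling the values were 0.382 and 0.362 for the HSP70 and HSP110 median, 0.317 and 0.296 for HSP90 and its cofactors, 0.101 and 0.080 for the TRiC median, 0.382 and 0.362 for HSPA1A, 0.024 and 0.0036 for HSP90AB1, 0.113 and 0.0925 for CCT3, 0.285 and 0.265 for CCT4, 0.269 and 0.249 for CCT6A, 0.101 and 0.0801 for CCT8, 0.132 and 0.111 for DNAJA1, 0.0417 and 0.0221 for BAG3, and 0.357 and 0.337 for HSF1, and the BAG median was 0.0171 under the first. Quantile normalisation gave 0.0869 for the BAG median, -0.0859 for HSPA8, 0.235 for HSPA1A, -0.18 for CCT7, 0.124 for BAG2, 0.102 for BAG3 and 0.262 for HSF1. Removal of the length trend gave 0.222 for the BAG median, 0.0373 for DNAJB, 0.00464 for DNAJC, 0.204 for HSP70 and HSP110, -0.32 for small heat shock proteins, 0.204 for HSPA1A, 0.576 for BAG2 and 0.407 for HSF1. Rescaling over nuclear coding genes gave -0.0926 for small heat shock proteins, -0.109 for DNAJB1 and -0.0311 for BAG6. The small heat shock protein median was also -0.10 with no filter, -0.0977 with a pseudocount of 0.1 and -0.0662 to 0.122 when 1 library was left out, where DNAJB1 reached -0.00216. Why these values turned was not tested.

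CCT4 (-0.15) no longer passed the test without any 1 of the controls or without shFAM111B library 1 (adjusted p = 0.0587 to 0.0991), and CCT6A without shFAM111B library 1 (adjusted p = 0.0511). CCT7 (0.14) passed it without control library 3 (adjusted p = 0.0462) or shFAM111B library 2 (adjusted p = 0.0231). The replicate numbers of the labels were not used as pairs in the main test. The deviations of same-numbered libraries correlated at 0.054, 0.035 and 0.091, and those of differently numbered libraries at -0.076 to 0.044. Of these, shFAM111B library 2 correlated best with control library 1 (0.044). Such weak correlations do not show whether the numbers mark pairs. With the replicate block 1 chaperone gene was called higher and 13 lower, as without it, and CCT7 passed the test (0.138, adjusted p = 0.0419). The block changed no other call among the named genes. Among all tested genes 996 were called higher and 3410 lower with it, beside 981 and 3409 without it. TPM hold no depth, so how depth limits a value cannot be given, and genes near 1 TPM have folds that the pseudocount pulls towards 0.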
